A study of Rattus norvegicus with 12 samples.

Results

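The transcript response of PC12 cells to 15 min of PACAP38 was read from 2 arrays, the dye-swapped pair whose titles give PC-12 and 15min, out of 12 arrays in the series. PC12 is a line derived from a rat adrenal pheochromocytoma, and PACAP38 is the 38-residue form of pituitary adenylate cyclase-activating polypeptide. The labels describe cells from RIKEN grown in RPMI with serum on a collagen coating, treated with PACAP38 at 1e-07 M or left as control, with RNA of each condition pooled (n = 6). The series runs from 5 to 120 min, with 10, 30 and 60 min in between, each time point with a control pool of its own time point, and asks which transcripts respond early in the neurite outgrowth that PACAP brings about in this line. The 15 min groups differ in PACAP38 and share the line, medium, serum and coating. A single clonal tumour line and pooled RNA limit what the groups can stand for: the spread between cultures is lost in the pool. Both arrays hold the same pair of RNA pools with Cy3 and Cy5 exchanged, so they are 1 replicate and the design allows no test. The folds of both arrays are therefore given side by side, and they cover the labelling and the array only.

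PACAP binds the G protein-coupled receptor PAC1, encoded by Adcyap1r1, and also the VIP receptors encoded by Vipr1 and Vipr2. In chromaffin and PC12 cells PAC1 couples to adenylate cyclase and phospholipase C, and cAMP then acts through protein kinase A and Epac proteins, with ERK activated in parallel. These kinases phosphorylate factors that are already present, among them CREB at cAMP response elements and the ternary complex factors at serum response elements. Genes that are switched on in this way without new protein synthesis are called immediate early genes. Many of them encode transcription factors, and others encode phosphatases and further proteins that act back on the signal.

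The arrays carried 41012 probes of 60 bases, and 41008 of them had a value on both 15 min arrays after spots that the scanner software marked as outliers were left out (240 spots on the array with PACAP38 in Cy5 and 238 on the other). No spot was saturated. Spots well above background, by the software's flag, made up 45.1 and 41.1% in the PACAP38 channel and 41.9 and 41.7% in the control channel, and 17324 probes were detected, meaning that at least 1 RNA was well above background on both arrays. Turned to PACAP38 over control, the log2 ratios of the 2 arrays were negatively correlated over all probes (Pearson r = -0.602) and over detected probes (r = -0.335). The same labels on a swapped dye thus gave opposite ratios for many probes. The limits given next were passed in opposite directions by 191 probes, 172 of them detected. On 1 array alone 391 or 320 probes would have counted as higher and 424 or 271 as lower. A probe was therefore counted only where PACAP38 over control reached 2 or fell to 0.5 on each array and where the spot had a p-value of the scanner software below 0.01, if both arrays gave the same direction. That p-value describes the spot, not the difference between conditions.

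By this rule 37 probes were higher with PACAP38 and 11 were lower at 15 min. These are 0.0902% and 0.0268% of the 41008 probes, and 0.214% and 0.0635% of the 17324 detected probes. The split depends on the signal used, since 18 probes were higher and 0 lower when the raw signals were corrected with normexp, which adds 50 to both channels, so that all counted probes were higher, against 77.1%. The higher probes covered 19 named genes with 20 probes, and most of those names are immediate early genes: Egr1, Egr4, Fos, Fosl2, Jun, Junb, Atf3, Klf4, Nr4a1, Nr4a2, Nr4a3, Btg2, Ier2, Arc, Dusp1, Rgs2 and Gadd45b. The remaining named genes were Mat2a and Or2y11. The other 17 higher probes and 10 of the 11 lower probes carried no gene name. The median fold was 6.41 for the higher probes, or 5.41 with folds set to their lower bound where control RNA was not measured, and the median ratio of the lower probes was 0.375, or 0.391 with such bounds. For all 37 and all 11, the processed signals of both PACAP38 channels lay on 1 side of both control channels, which the rule, set on the same signals, made likely.

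Around these probes the transcriptome differed little between the pools. Over the 17324 detected probes the median log2 fold was -0.005 with an SD of 0.254, and 97.6% lay within 1.5-fold. The median size of the log2 fold, 0.106, was close to the median distance of a single array from that mean, 0.097, and the distance was larger than the fold for 49.7% of detected probes.

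**Figure D1:**
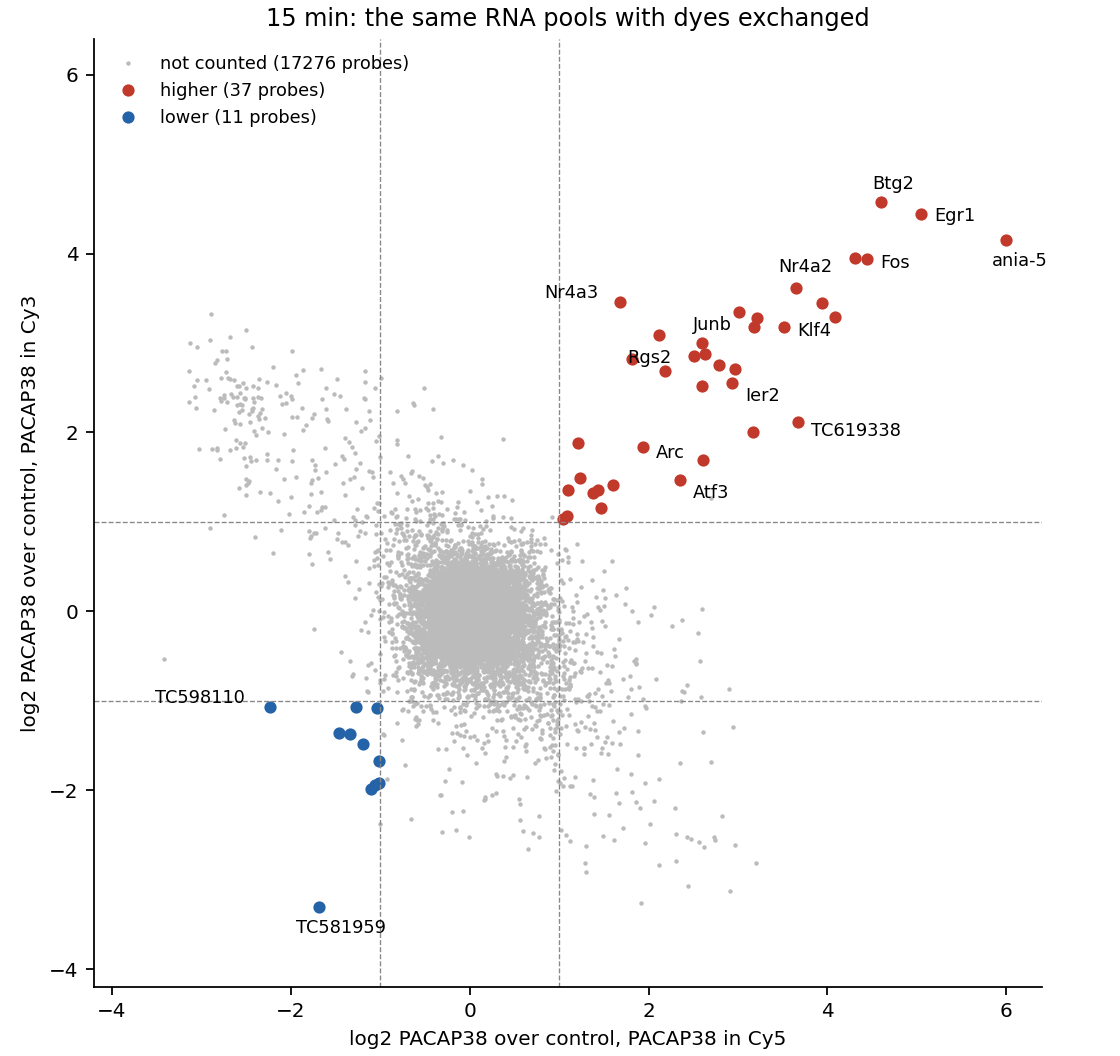
PACAP38 over control at 15 min on the 2 dye-swapped arrays (log2 fold with PACAP38 in Cy5 on the horizontal axis and in Cy3 on the vertical axis), for the 17324 detected probes in grey and the 48 counted probes in colour. The grey cloud leans along the falling diagonal (r = -0.335), while the counted probes lie along the rising one because they were chosen for the same direction on both arrays.

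In what follows, paired values give the array with PACAP38 in Cy5 first and the array with PACAP38 in Cy3 second, signals are the deposited processed intensities, and folds are averaged over both arrays on the log scale. Positions of probes are on rat build rn4 as the files give them, distances run between the starts of probes, and exon and intron annotation was not used here. Signals of different probes are not compared, since each probe has its own response.

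Of the Egr and Krueppel-like zinc finger factors, Egr1, Egr4 and Klf4 were higher with PACAP38. Egr1, an immediate early transcription factor that binds GC-rich sites (probe at chr18:27347173-27347232), gave 10407 and 8075 in PACAP38 RNA against 315.9 and 371.1 in control RNA, a fold of 26.8 (32.9 and 21.8). The array holds 8 spots of this probe, whose folds ran from 29.2 to 34.8 on the first array and from 20.9 to 22.5 on the second. The SD of the log2 fold between spots was 0.08 and 0.04, so the arrays differed by more than spots within them did. Egr4, a relative of Egr1 (chr4:119765289-119765348), gave 552.1 and 865.3 against 89.1 and 118.1, a fold of 6.74 (6.19 and 7.33). Klf4, a factor known from growth control and pluripotency (chr5:73446994-73447053), gave 1710 and 1399 against 150.0 and 154.9, a fold of 10.1 (11.4 and 9.03). In all 3 genes both PACAP38 signals stood well apart from both control signals. A further probe that the file describes as similar to Klf4 (XM_213050, chr5:162464991-162465050) lies elsewhere on the same chromosome and gave a fold of 9.07 (9.08 and 9.07), with 1541 and 1570 against 169.6 and 173.2. Its annotation rests on similarity, so binding of the Klf4 transcript to that probe cannot be told apart from a transcript of its own. Egr3 was well above background on 1 array in PACAP38 RNA and on neither in control RNA, which gives a fold of at least 1.05, and Egr2 was too dim in both RNAs for a fold. The corepressor Nab1, which binds Egr proteins, read 1.06.

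The AP-1 subunits, which bind DNA as Fos and Jun dimers, had 4 of 7 genes counted as higher, beside 0.214% of all detected probes. Fos (chr6:109561099-109561158) gave 3146 and 2066 in PACAP38 RNA against 144.8 and 134.5 in control RNA, a fold of 18.3 (21.7 and 15.4). Junb (chr19:24832781-24832840) gave 3042 and 3890 against 504.6 and 487.3, a fold of 6.94 (6.03 and 7.98). Jun (chr5:115358764-115358823) gave 3874 and 3526 against 641.4 and 617.1, a fold of 5.88 (6.04 and 5.71). The signals did not overlap in any of these genes, and for Jun the SD of the log2 fold between the spots of the probe was 0.06 and 0.05. Fosl2 was dim, with 43.2 and 41.3 in PACAP38 RNA, and control RNA did not rise well above background, so the fold is at least 1.77. The other 3 subunits did not pass: Fosl1 was at 1.39 (1.35 and 1.42), Jund at 1.17 and Fosb at 1.01. Atf3, a CREB-family factor that dimerises with Jun proteins (chr13:107191582-107191614), gave 138.6 and 101.4 against 27.3 and 36.6, a fold of 3.75 (5.08 and 2.77), with control RNA well above background on 1 array.

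All 3 Nr4a orphan nuclear receptors, factors that act without a known ligand, were counted as higher, beside 0.214% of all detected probes. Nr4a2 (chr3:38867021-38867080) gave 702.9 and 776.2 in PACAP38 RNA against 55.9 and 63.2 in control RNA, a fold of 12.4 (12.6 and 12.3). Nr4a1, an immediate early member of the family (chr7:140020442-140020501), gave 5202 and 5552 against 666.8 and 850.1, a fold of 7.14 (7.80 and 6.53). The arrays lay close together for both genes. Nr4a3 rests on weaker ground: its counted probe (chr5:64727357-64727416) gave 55.7 and 63.6, control RNA did not rise well above background, and the fold is at least 2.45. Its other 2 probes gave no fold, since PACAP38 RNA cleared background on no array, and control RNA did so on 1 array for 1 of them.

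Among the immediate early response genes that are not DNA-binding factors, Btg2 and Ier2 were higher. Btg2, an antiproliferative protein that recruits the CCR4-NOT deadenylase (chr13:47027022-47027081), gave 10418 and 9248 in PACAP38 RNA against 430.1 and 387.4 in control RNA. Its fold of 24.0 was almost the same on both arrays (24.2 and 23.9). Ier2, a small nuclear protein of the early growth response (chr19:25160648-25160707), gave 23720 and 23656 against 3099 and 4035, a fold of 6.70 (7.65 and 5.86). Tob1, of the Btg2 family, was at 1.85 (2.11 and 1.61) and was not counted, and Ier3 was at 1.36. Zfp36, which destabilises AU-rich mRNAs, was too dim in both RNAs, and its relative Zfp36l2 was at 1.33.

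Genes that act back on kinase and G protein signals were represented by Dusp1, Rgs2 and Gadd45b. Dusp1, a phosphatase of MAP kinases (chr10:16944342-16944661), gave 392.4 and 334.5 in PACAP38 RNA against 56.9 and 49.8 in control RNA, a fold of 6.81 (6.89 and 6.72). Of 9 detected dual-specificity phosphatase genes 1 was counted, Dusp1, beside 0.214% of all detected probes, with Dusp5 at 1.35 (1.41 and 1.28) and Dusp2 at 1.32. Rgs2, which speeds GTP hydrolysis on G protein alpha subunits (chr13:57890958-57891017), gave only 53.0 and 40.6, against control RNA at 9.32 and 5.63 that did not clear background on either array. Its fold is at least 1.90. Gadd45b, a stress and growth arrest protein that binds MAP kinase kinases (chr7:10289049-10289076), gave 1475 and 2472 against 627.4 and 878.6, a fold of 2.57 (2.35 and 2.81).

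**Figure D2:**
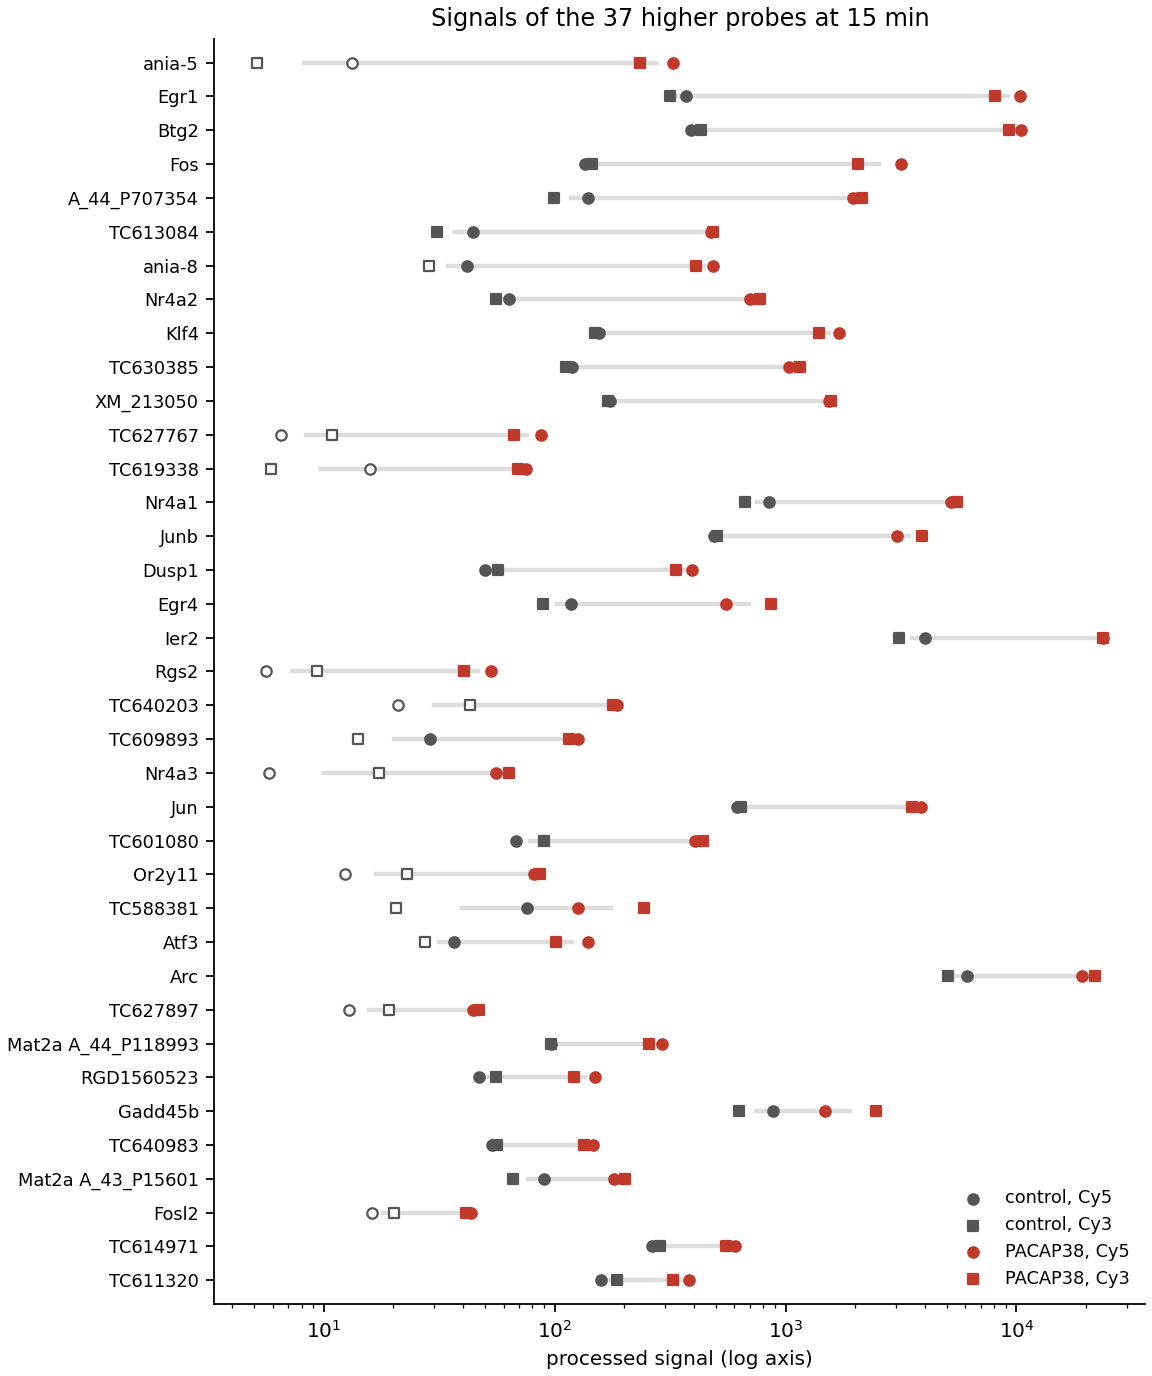
Processed signals of the higher probes at 15 min on a log axis, for PACAP38 and control RNA on each of the 2 dye-swapped arrays; open symbols mark a signal that was not well above background and grey bars join the geometric means of the RNAs. In every probe drawn both PACAP38 signals lie to the right of both control signals, and many of the open symbols are control RNA of dim probes such as Rgs2 and Nr4a3.

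Effector genes were fewer. Arc, a synaptic protein that forms RNA-carrying capsids (chr7:112772025-112772084), gave 19213 and 21918 in PACAP38 RNA against 5030 and 6134 in control RNA, a fold of 3.69 (3.82 and 3.57). Over its 10 spots the SD of the log2 fold was 0.02 and 0.04. Mat2a, the enzyme that makes S-adenosylmethionine, had 2 counted probes that lie side by side at chr4:105740819-105740878 and chr4:105740884-105740943. The first gave 181.0 and 201.6 against 65.6 and 90.2, a fold of 2.48, and the second 292.3 and 255.4 against 96.4 and 95.9, a fold of 2.84. A further Mat2a probe, 2276 bases from the first, gave 6164 and 5667 in PACAP38 RNA against 5549 and 4887 in control RNA and read 1.13, so the probes of this gene disagree. Or2y11, an olfactory receptor gene, was at least 3.36-fold higher, with 81.0 and 86.4 in PACAP38 RNA and control RNA not well above background.

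Probes of the higher set without a gene name followed the same pattern. AF030090 (ania-5) and AF050660 (ania-8), clones described as induced by neuronal activity, lie 3244 bases apart on the same strand of chromosome 2. AF030090 gave 325.6 and 234.5 in PACAP38 RNA, with control RNA at 5.11 and 13.2 and not well above background, a fold of at least 11.6. AF050660 gave 483.2 and 408.7 against 28.5 and 41.7, a fold of 12.9 (17.0 and 9.80). Both therefore stood among the larger folds of the set. The unannotated probe A_44_P707354 gave 1964 and 2146 against 99.1 and 139.2, a fold of 17.5 (19.8 and 15.4). The nearest Crem probe lies 59030 bases from it on the same strand, and the Crem probes with both RNAs measured read 1.11 and 1.23. TC613084 gave 475.4 and 484.1 against 31.0 and 44.3, a fold of 12.9 (15.4 and 10.9), and TC630385 gave 1033 and 1153 against 111.5 and 118.7, a fold of 9.49 (9.27 and 9.72). TC619338 and TC601080 lie 632 bases apart on opposite strands of chromosome 15. TC619338 was at least 3.09-fold higher, and TC601080 gave a fold of 5.41 (4.53 and 6.46). TC640203 was at least 5.37-fold higher, with 186.5 and 178.1 in PACAP38 RNA. The probe sequence is what identifies these transcripts, so it is given for the 6 just described, in the 5′ to 3′ order of the array's probe column and with rn4 positions where the files give them. TC613084 has none.
A_44_P707354, chr17:62771650-62771709: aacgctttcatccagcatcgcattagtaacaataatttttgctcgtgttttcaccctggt
TC613084: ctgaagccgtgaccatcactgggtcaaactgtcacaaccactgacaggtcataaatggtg
TC630385, chr12:33685682-33685741: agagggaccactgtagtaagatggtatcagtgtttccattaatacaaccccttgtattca
TC619338, chr15:105356885-105356944: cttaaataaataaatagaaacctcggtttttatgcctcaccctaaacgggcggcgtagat
TC601080, chr15:105357517-105357576: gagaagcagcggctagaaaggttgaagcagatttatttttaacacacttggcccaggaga
TC640203, chr16:1959769-1959828: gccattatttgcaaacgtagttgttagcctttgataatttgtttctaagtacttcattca

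Of the remaining unnamed probes, TC609893 was at 6.01 with control RNA well above background on 1 array, and TC588381 was at 4.43 (6.10 and 3.22). TC588381 lies 2741 bases from the Dusp1 probe on the opposite strand, and AA817984, a probe 979 bases from Dusp1 that was not counted, gave 25.6 and 15.1 in PACAP38 RNA against 5.35 and 7.19 in control RNA, the latter below background. TC627767 was at least 3.14-fold higher, and a probe 7310 bases from it, A_44_P967547, gave 25.3 and 31.1 against 11.8 and 9.60, again with control RNA below background and outside the count. Smaller folds were read for RGD1560523 at 2.63, TC640983 at 2.55, TC614971 at 2.11 and TC611320 at 2.06, while TC627897 was at least 1.91-fold higher.

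Promoters were looked at for the named higher genes, because many of them respond to cAMP or serum through short elements close to the start site. RefSeq promoter windows on build GRCr8, running from 250 bases before to 50 bases after the start, were given for 13 of the 19 genes; Arc, Atf3, Fos, Jun, Nr4a3 and Or2y11 had none. The full cAMP response element, TGACGTCA, was found in 3 of the 13 windows (Btg2, Dusp1 and Ier2), against 1.83% of all 33469 windows and 3.15% of the 8472 windows of detected genes. Its core, TGACG on either strand and part of the full element, was found in 10 of 13, against 21.2% and 33.5%. Klf4, Mat2a and Fosl2 held no core. Windows are shown for the 3 genes with the full element and for 3 genes with the core only, with the matches to any searched motif in capitals; the strand is that of the gene.
Btg2, chr13:48087641-48087940, minus strand: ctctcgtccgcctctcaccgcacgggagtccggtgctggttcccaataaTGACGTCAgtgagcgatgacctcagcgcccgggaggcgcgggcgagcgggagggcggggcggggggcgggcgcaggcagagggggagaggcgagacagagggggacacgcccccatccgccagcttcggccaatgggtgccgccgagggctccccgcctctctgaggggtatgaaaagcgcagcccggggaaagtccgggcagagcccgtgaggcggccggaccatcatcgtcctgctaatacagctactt
Dusp1, chr10:17184603-17184902, plus strand: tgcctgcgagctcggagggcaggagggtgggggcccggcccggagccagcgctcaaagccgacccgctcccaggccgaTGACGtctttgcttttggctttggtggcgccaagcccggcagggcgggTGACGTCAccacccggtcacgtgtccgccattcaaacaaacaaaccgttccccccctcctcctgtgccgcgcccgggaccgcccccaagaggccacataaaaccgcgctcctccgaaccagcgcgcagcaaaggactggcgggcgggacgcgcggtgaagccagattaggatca
Ier2, chr19:40399123-40399422, plus strand: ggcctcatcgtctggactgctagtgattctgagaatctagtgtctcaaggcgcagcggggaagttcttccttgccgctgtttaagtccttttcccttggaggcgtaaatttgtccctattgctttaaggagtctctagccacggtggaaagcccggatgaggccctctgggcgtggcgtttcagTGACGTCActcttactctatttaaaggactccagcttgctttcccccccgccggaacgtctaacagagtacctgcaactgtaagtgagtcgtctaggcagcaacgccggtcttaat
Egr4, chr4:119607768-119608067, minus strand: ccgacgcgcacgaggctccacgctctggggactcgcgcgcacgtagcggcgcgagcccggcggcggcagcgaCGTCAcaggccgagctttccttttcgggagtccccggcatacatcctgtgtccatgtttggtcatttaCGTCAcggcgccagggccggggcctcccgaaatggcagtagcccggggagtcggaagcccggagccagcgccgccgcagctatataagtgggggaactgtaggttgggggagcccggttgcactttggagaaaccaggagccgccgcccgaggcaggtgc
Nr4a1, chr7:134259888-134260187, plus strand: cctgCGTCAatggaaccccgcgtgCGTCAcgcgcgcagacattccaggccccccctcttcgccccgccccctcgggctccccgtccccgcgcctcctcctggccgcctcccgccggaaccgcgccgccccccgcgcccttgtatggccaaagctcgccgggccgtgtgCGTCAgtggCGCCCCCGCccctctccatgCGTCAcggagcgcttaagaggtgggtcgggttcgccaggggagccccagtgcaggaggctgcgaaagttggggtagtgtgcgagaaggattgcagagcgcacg
Junb, chr19:40080876-40081175, plus strand: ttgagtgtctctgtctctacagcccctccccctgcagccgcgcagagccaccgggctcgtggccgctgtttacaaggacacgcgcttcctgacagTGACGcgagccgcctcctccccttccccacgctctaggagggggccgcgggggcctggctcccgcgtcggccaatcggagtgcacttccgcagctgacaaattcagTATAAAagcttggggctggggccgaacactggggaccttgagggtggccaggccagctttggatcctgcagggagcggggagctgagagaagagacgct

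The full element began 201 bases before the start in Btg2, 124 before it in Dusp1 and 66 before it in Ier2, and Dusp1 held a further core 172 bases before it. Nr4a1 held 4 cores and Egr4 held 2. The serum response factor motif, the CArG box (CC, 6 bases of A or T, GG), was found in 1 window, that of Egr1, with 2 matches at 105 and 83 bases before the start, against 1.64% of all windows and 1.17% of those of detected genes. The Egr motif, GCGGGGGCG or GCGTGGGCG, was found in Nr4a1 and Fosl2, against 3.20% of all windows and 6.41% of those of detected genes. The AP-1 motif, TGANTCA, matched 0 of 13 against 7.33% and 4.56%, and TATAAA matched Junb, Klf4 and Mat2a, or 3 of 13 against 14.2% and 6.4%. With 13 windows chosen by their folds these shares are a description, and a match of letters is not a bound site.

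The lower probes were dim and mostly unnamed. Their control signals ran from 40.3 to 389.9, PACAP38 RNA cleared background on no array for 2 of them and on 1 array for 4, and 5 had both RNAs above it on both arrays. TC581959, described in the file as IkappaB alpha, gave 20.0 and 7.61 in PACAP38 RNA against 64.6 and 75.1 in control RNA, which is at least 3.53-fold lower. The probe of Nfkbia, the gene of IkappaB alpha, lies 222 bases away on the same strand and read 0.963 (0.978 and 0.948). The 2 neighbouring probes therefore gave different readings. TC598110 was at least 2.15-fold lower, and the Srek1ip1 probe 2458 bases from it read 0.913.

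In 5 lower probes both RNAs were measured on both arrays. TC632166 gave 180.2 and 185.0 in PACAP38 RNA against 371.2 and 389.9 in control RNA, a ratio of 0.480 (0.486 and 0.474). TC603172 gave 54.0 and 52.5 against 136.1 and 136.5, a ratio of 0.391 (0.397 and 0.385). For these probes the arrays gave nearly the same ratio. Srpk2, a kinase of SR splicing factors and the only lower probe with a gene name (chr4:6918871-6918930), gave 81.3 and 54.2 against 163.9 and 172.9, a ratio of 0.394 (0.496 and 0.313). The other Srpk2 probe read 1.02, so the gene itself has no settled direction. A_44_P854619 was at 0.396 and TC629432 at 0.444.

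The remaining 4 lower probes were above background in PACAP38 RNA on 1 array. AB006881, a clone named PMF16 (chr8:44571663-44571722), gave 42.4 and 29.0 against 86.1 and 110.0, a ratio of 0.361 (0.493 and 0.264). It lies 2538 bases from TC603172, on the opposite strand of the same chromosome. Another AB006881 probe, 552 bases from the counted one on the same strand, was too dim in both RNAs for a fold. TC612284 was at 0.375 (0.362 and 0.390), BF413704 at 0.343 and TC642546 at 0.352.

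**Figure D3:**
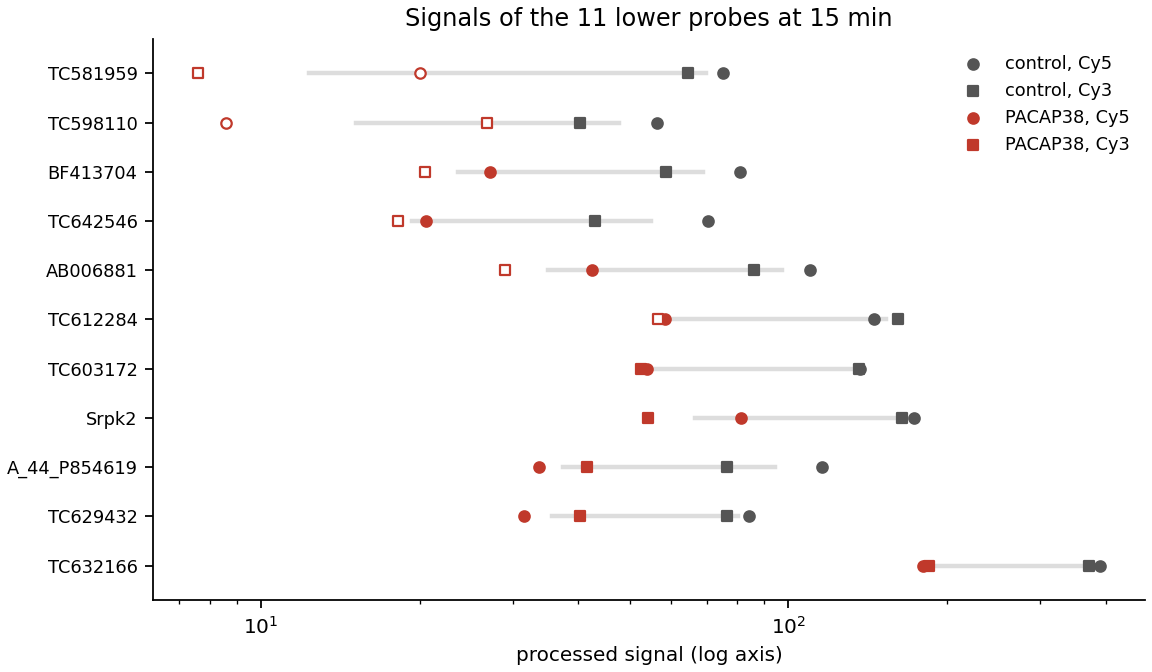
Processed signals of the 11 lower probes at 15 min on a log axis, for PACAP38 and control RNA on each of the 2 dye-swapped arrays, with open symbols for a signal that was not well above background. Both PACAP38 signals lie to the left of both control signals in all 11 probes, whose control signals range from 40.3 to 389.9.

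Genes close to the limits show how the rule acted. Just inside it lay TC611320 at 2.06 (2.06 and 2.05) among the higher probes, and Srpk2, AB006881 and TC632166 among the lower ones. Just outside it lay TC605803 at 0.444 (0.511 and 0.385) and FQ232297 at 0.444 (0.515 and 0.383), each missing the limit on 1 array. FQ232297 gave 1881 and 1637 in PACAP38 RNA against 3650 and 4277 in control RNA, so its signals did not overlap either. Rasl11a, a small GTPase gene, read 2.93 (4.18 and 2.06) without being counted, with each RNA well above background on 1 array.

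At 10 min 27 probes were higher (0.0659% of 40984), and all 27 were also counted as higher at 15 min. The 10 min arrays lie on another slide than the 15 min arrays and each time point has its own control pool, so the time points are set side by side without a test. The 10 probes counted at 15 min and not at 10 min were Egr4, Atf3, Nr4a3, Dusp1, Rgs2, Gadd45b, Fosl2, TC627897, TC614971 and TC627767. Folds could be set side by side for 5 of them: Egr4 read 2.89 and then 6.74, Dusp1 1.96 and 6.81, Gadd45b 1.84 and 2.57, TC614971 2.02 and 2.11, and Atf3 0.983 (1.88 and 0.514) and 3.75. The choice of probes that passed at 15 min only favours a larger fold there, so nothing is read from these differences. Egr4 was already past 2 on both arrays at 10 min (2.35 and 3.54). At 10 min Rgs2 and Nr4a3 were too dim in both RNAs for a fold. At 10 min 0 probes of the whole array were counted as lower.

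At 30 min, on the same slide as 15 min, 102 probes were higher (0.249% of 41005) and 42 lower (0.102%). These included 34 of the 37 higher probes of 15 min and 7 of the 11 lower ones. Both of these numbers were smaller with signals corrected by normexp, as given in the closing section. In 22 higher probes both RNAs were well above background on all arrays of 10, 15 and 30 min, and their median fold was 3.62, 6.87 and 11.8. The fold was larger at 15 than at 10 min in both dye orientations for 15 of these 22 and smaller in both for 4, and it was larger at 30 than at 15 min in both for 17 and smaller in both for 2. Since the probes were chosen by their 15 min fold, the choice favours a larger fold at 15 than at 10 min, and nothing is read from that count. Probes with larger folds at 30 than at 15 min included Klf4, with 2.49, 10.1 and 46.9, Egr1, with 15.3, 26.8 and 60.7, and Btg2, with 10.7, 24.0 and 45.8. Fos was already at 16.8 at 10 min and read 18.3 and 21.3 after that, and A_44_P707354 read 15.1, 17.5 and 17.6. Fos and this unnamed probe were thus near their 30 min fold at 15 min, while Klf4 was not. Jun read 2.91, 5.88 and 9.38, and Arc 2.07, 3.69 and 6.03.

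Some probes had about the same or a smaller fold at 30 than at 15 min. TC601080 read 6.28, 5.41 and 4.19 at 10, 15 and 30 min. TC611320 read 2.87, 2.06 and 2.05, and Mat2a read 2.98, 2.84 and 2.38 with 1 probe and 2.82, 2.48 and 2.58 with the other, followed by 4.07 and 3.81 at 120 min. TC601080 therefore followed another course than Egr1 or Klf4, and Mat2a had its largest fold at the last time point. For Rgs2, whose control RNA stayed below background, the lower bounds were 1.90, 11.9 and 89.3-fold at 15, 30 and 60 min.

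**Figure D4:**
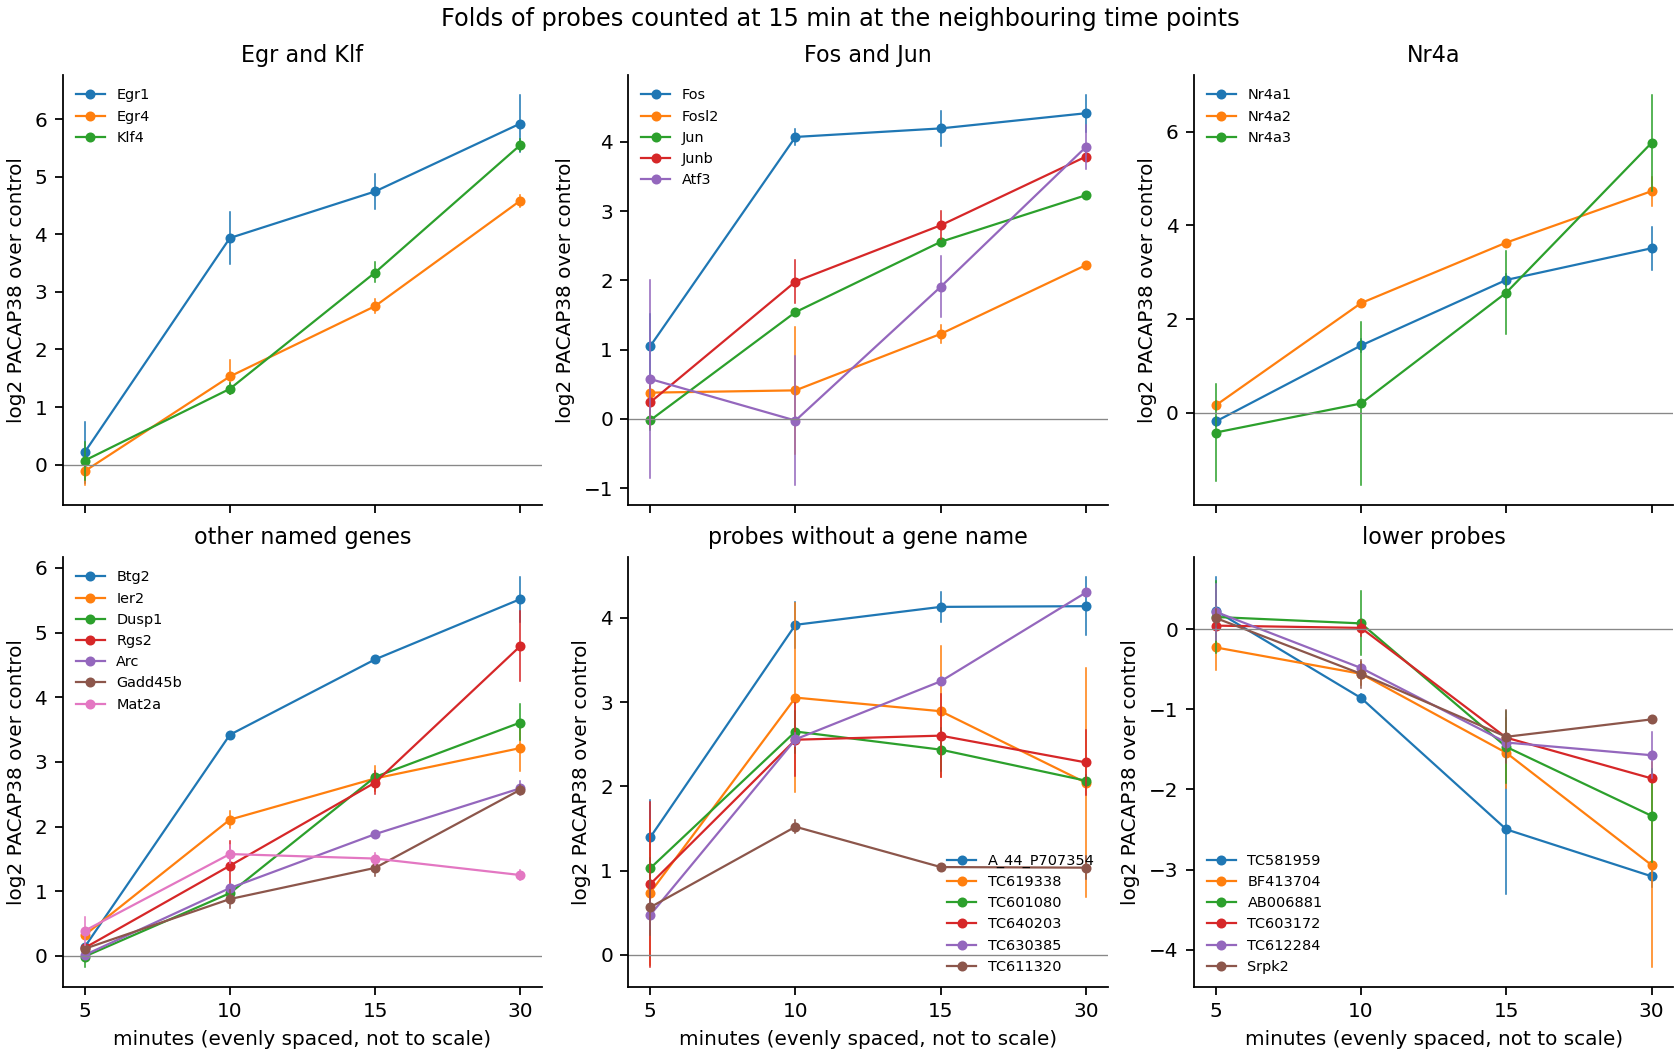
Measured log2 fold of PACAP38 over control at 5, 10, 15 and 30 min for probes counted at 15 min, in panels by role; points are means of the 2 dye-swapped arrays, bars run from the fold of one array to that of the other, and folds of dim probes are drawn as measured, not as bounds. Klf4 and Egr4 climb through 30 min, while A_44_P707354 stays near its 10 min fold.

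The lower probes were chosen for a ratio of at most 0.5 at 15 min, so nothing is read from their ratios being closer to 1 at 10 min. AB006881 and TC603172, the neighbours on chromosome 8, read 1.05 and 1.01 at 10 min. At 30 min both were still lower, by at least 3.61-fold and at least 3.58-fold, since PACAP38 RNA no longer cleared background. TC612284 read 0.714 at 10 min and 1.03 at 120 min, and TC632166 0.762 and 1.30, so these probes were near or above 1 at the last time point. AB006881, TC603172 and BF413704 were still counted as lower there, at 0.266, 0.301 and 0.309.

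The probes with the largest change at 30 min that were not counted at 15 min were FQ220365, Csrnp1, Tp53rkb, BE116623 and Fosl1, among probes with both RNAs well above background at 30 min. Csrnp1, a nuclear protein of the early response, read 1.08, 1.74 (1.88 and 1.61) and 5.93 at 10, 15 and 30 min. Tp53rkb read 1.03, 1.59 (1.65 and 1.52) and 5.76, and Fosl1 1.17, 1.39 and 5.25. With these probes the 3 genes were above 1 on both arrays at 15 min without reaching the limit. A dimmer Csrnp1 probe read 1.34 (1.95 and 0.924) at 15 min. FQ220365 read 1.10 (1.24 and 0.983) at 15 min and 7.40 at 30 min. BE116623 read 0.540 (0.498 and 0.585) at 15 min and 0.188 at 30 min.

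Gene lists place these members in their pathways. Of the inducible transcription factors outside the families above, 1 of 16 detected genes was higher (Atf3), beside 0.214% of all detected probes, and the median log2 fold of the list's detected probes was 0.391 against -0.005 over all detected probes. Members below the limit included Cebpb at 1.58, Id3 at 1.53 and Id1 at 1.40, while Srf, the factor of serum response elements, was at 0.995. Myc and Npas4 were too dim in both RNAs. The median was 0.411 for immediate early response and mRNA decay genes, and folds of dim members enter such medians as measured. Klf4 stood alone in its family: 1 of 8 detected Krueppel-like factors was counted beside the same share, with a list median of -0.099.

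A list of feedback genes of the cAMP pathway had 1 of 10 detected genes counted, Gadd45b, beside 0.214% of all detected probes, and its median was 0.019. The list leaves out cAMP-inducible genes described above, such as Fos, Nr4a1 and Dusp1. Sik1, a kinase that restrains CREB coactivators, read 1.21 at 15 min and 3.98 at 30 min, and Crem, whose internal promoter makes the repressor ICER, read 3.51 and 3.84 at 30 min with the probes measured in both RNAs at 15 min. Sprouty and Spred genes, inhibitors of Ras and ERK signalling, had 0 of 2 detected genes counted. Beside 0.214% higher and 0.0635% lower of all detected probes, that is no result about them. Of 7 detected RGS and inducible GTPase genes Rgs2 was counted, beside 0.214% of all detected probes. Rhob read 1.84 (2.10 and 1.62) and Rasd1 was at least 1.37-fold higher. Of 16 detected activity-regulated effectors and secreted factors Arc was counted beside the same share, and Plk2 read 1.55 (1.40 and 1.72) before 4.84 at 30 min.

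**Figure D5:**
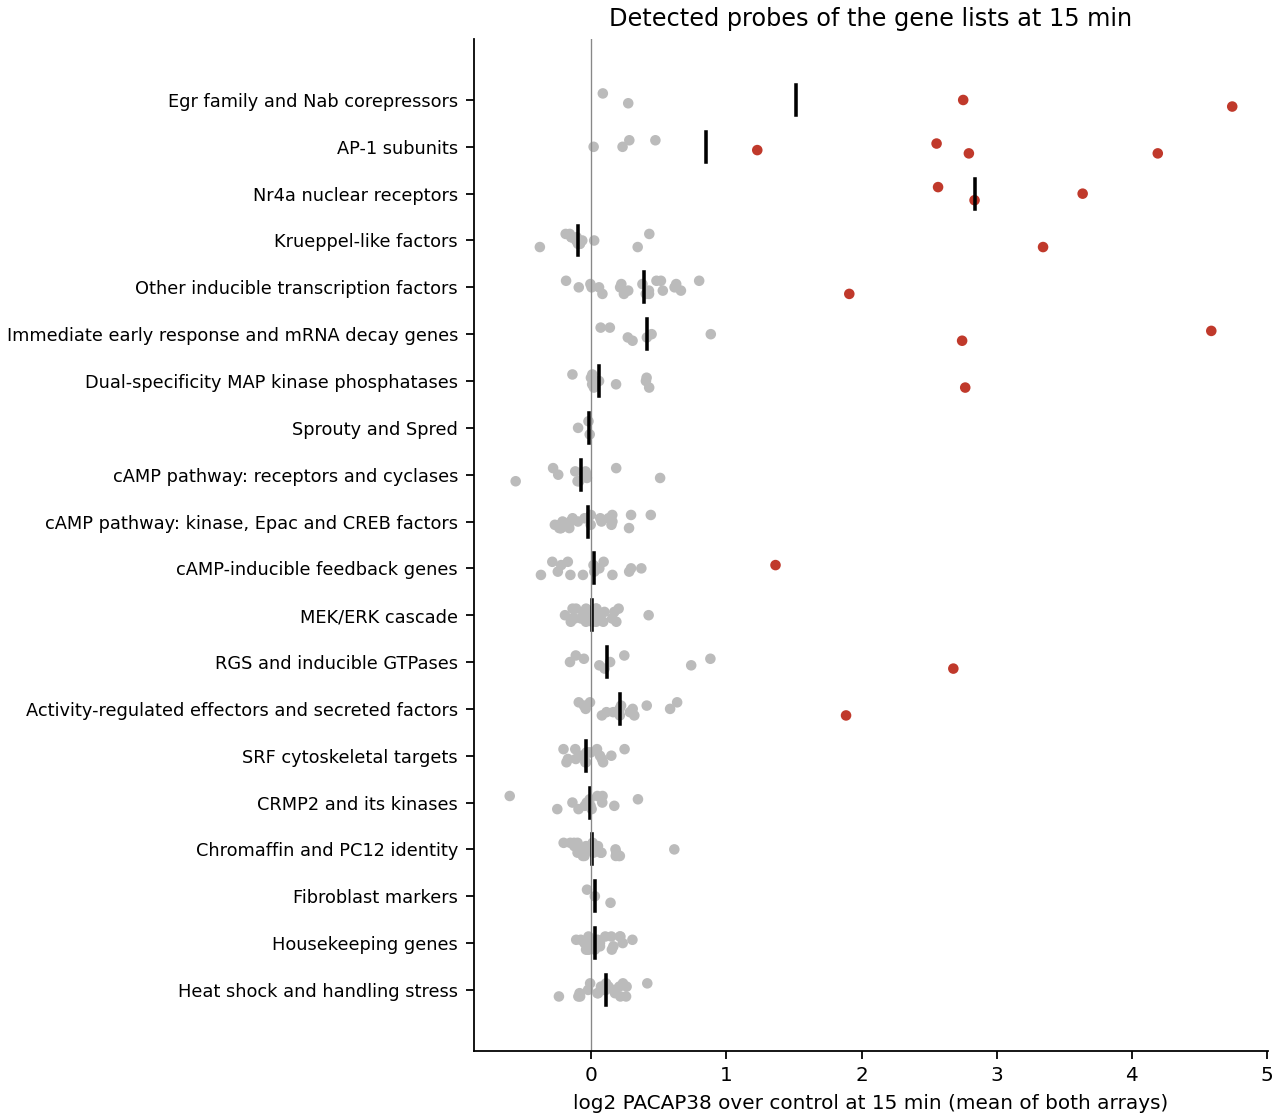
Log2 fold of PACAP38 over control at 15 min (mean of both arrays) for the detected probes of each gene list, with counted probes in red, the other probes in grey and the list median as a black bar; folds of dim probes are drawn as measured. The lists of transcription factors and early response genes hold red points, while the receptor, kinase and cell identity lists stay around 0.

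The receptor Adcyap1r1 gave 6489 and 7919 in PACAP38 RNA against 7767 and 7494 in control RNA, a ratio of 0.940 (0.836 and 1.06), and the RNAs overlapped. Vipr1 and Vipr2 did not clear background. Among 8 detected receptor and cyclase genes, 12 detected protein kinase A, Epac and CREB genes and 18 detected MEK and ERK cascade genes, 0 were higher and 0 lower, which at 0.214% and 0.0635% of all detected probes is no result about them, with list medians of -0.073, -0.028 and 0.007. Gnas, which encodes the stimulatory G protein subunit, read 1.14, and Creb1 0.856. The list of CRMP2 and its kinases, proteins that govern neurite growth, had 0 of 10 detected genes counted, which beside the same shares is no result about them. Dpysl2 read 0.977 (1.14 and 0.839), Gsk3b 0.907, Cdk5 1.27 and Rock1 0.840. A dimmer Dpysl2 probe read 0.658 (0.776 and 0.558), with PACAP38 RNA well above background on 1 array.

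Genes that the study's text names from its arrays were chosen on these samples and are no independent evidence. Many of them, Egr1, Egr4, Fos, Jun, Junb, Arc and the Nr4a receptors, are described above. A list of 21 names from that text, which shares Klf4, Btg2, Ier2 and Rgs2 with the genes above, had 10 genes detected. Those 4 were the ones counted, all higher, beside 0.214% of all detected probes. Inhba and Fst, an activin subunit and the activin-binding protein follistatin, did not clear background in either RNA, nor did the 4 probes of Fat4 or Reln. Pard3 read 0.956 and Axin2 0.977, and Ptafr read 0.564 (0.638 and 0.499).

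The identity of the cells was read from marker lists. All 16 chromaffin and PC12 genes on the array were detected, with summed signals of 267391 in PACAP38 RNA and 273001 in control RNA. Th, the rate-limiting enzyme of catecholamine synthesis, gave 53106 and 57200 against 54000 and 60386. The log2 folds of the detected chromaffin and PC12 probes had a median of 0.004 and ran from -0.20 to 0.61. Of the glial markers, Gfap, Sox10 and S100b did not clear background in either RNA. Fibroblast markers summed to 219.4 and 213.8, with Col1a1, Col1a2 and Pdgfra detected. Blood and vessel markers summed to 159.5 and 153.3, with Cd68 detected and Ptprc, Hbb, Pecam1 and Cdh5 below background. None of the 8 adrenal cortex markers was detected. Among detected genes, 0 of 14 housekeeping, 0 of 12 heat shock, 0 of 90 ribosomal protein and 0 of 185 zinc finger genes were counted, beside 0.214% higher and 0.0635% lower of all detected probes, so the zeros are no result about these lists. The medians of the housekeeping and heat shock lists were 0.026 and 0.107. In pooled RNA, fewer cells of a type and less RNA per cell cannot be told apart.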

How the data were processed

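The authors labelled pooled RNA with Cy3 and Cy5 and scanned Agilent 4x44K rat arrays; the submitters' processing notes name Agilent Feature Extraction 11.0.1.1. From the deposited processed intensities the software had subtracted background, removed spatial trends and normalized the dyes by LOWESS, putting a surrogate on spots near background, and the deposited mean and background intensities are the scanner's own. The deposited p-value of a spot comes from the software's error model for its log ratio, and the deposited table holds the log10 of Cy5 over Cy3, not turned for dye. Other deposited columns are flags for control spots, outliers, saturation and signal well above background.

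Of 45018 spots an array, 1639 controls were removed, as were outlier spots. PACAP38 over control was taken from the processed intensities by the labelled dye, spots of a probe were averaged on the log2 scale (263 probes have several), with the median of their p-values, and both arrays were averaged. A probe was counted where this fold reached 2 or fell to 0.5 with p below 0.01, on both arrays. Where an RNA did not clear background on either array, a bound stands in for the fold: processed signals were normalized by loess and Aquantile in limma 3.58.1, and the mean of the bright RNA was set against, per array, the higher of the dim probe's signal and the lowest signal of any probe well above background. With neither RNA above it no fold is given. No test was run, because the arrays are repeats of 1 pair of pools; the number of arrays limits the precision. Of 41012 probes, 19277 matched RefSeq by accession and 1599 were renamed; the brightest probe stands for a gene of several. The text names every counted probe, genes of the lists, the 5 probes with the largest change at 30 min among those not counted at 15 min, and genes the study names. The neighbouring probes were chosen after their values were seen. The members, lists, motifs and rules were chosen with earlier results of these data known. The code was tested on simulated data. Alternatives changed the p limit, the fold limit, the background filter, outlier spots, the normalization (normexp with an offset of 50, then loess or median centring), the deposited table, and each array alone. Python 3.11.15, pandas 2.3.3, numpy 2.4.6, scipy 1.17.1, matplotlib 3.10.9 and R 4.3.3 were used. The proteome of the study was not analysed here. Some members of the glial marker list are not reported here.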

Additional observations from a re-analysis of the deposited data

Results flagged for a closer look

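Among the 48 counted probes, and leaving out time points at which neither RNA cleared background, there were 4 in which both arrays of 15 min lay on one side of 1 and both arrays of another time point on the opposite side; each time point is 1 replicate and none of these differences was tested. Nr4a1 read 0.882 at 5 min (0.830 with PACAP38 in Cy5 and 0.938 in Cy3) against 7.14 at 15 min. Srpk2 read 1.10 at 5 min (1.19 and 1.02) against 0.394 at 15 min. TC642546 read 1.27 at 120 min (1.54 and 1.05) against 0.352 at 15 min. TC632166 read 1.30 at 120 min (1.32 and 1.29) against 0.480 at 15 min.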

How the results depend on the processing

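The 37 higher and 11 lower probes, 77.1% of them higher, kept these counts with outlier spots kept, with the deposited table of ratios, and with at least 1 RNA required above background. The deposited ratios were read with the same spot p-values and with outlier spots kept. They gave the same folds as that setting, so they are no separate check. Centring each array on its median gave 36 and 11 (76.6%), of which 36 and 8 were in the original sets. Without a p limit, 67 were higher and 25 lower; with the 2-fold limit on the geometric mean alone 198 and 147 (57.4% higher). A 1.5-fold limit gave 55 and 47 (53.9%) and a 3-fold limit 27 and 1 (96.4%). With both RNAs required above background on both arrays, 24 and 5 remained. Each array alone gave 320 to 391 higher and 271 to 424 lower probes, with 48.0 to 54.1% higher. Normexp with loess or with median centring gave 18 higher and 0 lower (100% higher). With normexp and loess, of the 37 higher probes 8 were higher at 10 min (27 without it) and 22 at 30 min (34 without it), their median fold was 1.52 at 10 min (3.33 without it) and 3.16 at 30 min (9.38 without it), and 0 of the 11 lower probes were lower at 30 min (7 without it), with a median ratio of 0.833 there (0.336 without it) and 0.931 at 10 min (0.762 without it). Under normexp and loess all 37 and all 11 probes kept their direction, with medians of 2.12 and 0.851; the offset of 50 added to both channels pulls dim ratios toward 1 by construction. The named genes that it took out of the count were Atf3, Fosl2, Mat2a, Nr4a3, Or2y11 and Rgs2, while Egr1 read 16.2, Btg2 16.1, Fos 6.70 and Ier2 6.54. Nr4a2 went from 12.4 to 3.27, TC613084 from 12.9 to 2.62, AF050660 from 12.9 to 2.29, Egr4 from 6.74 to 2.25, Dusp1 from 6.81 to 2.15, and AF030090, at least 11.6-fold higher before, read 2.13 and was not counted. With another probe of the gene, Nr4a3 gave a measured ratio of 0.446 with PACAP38 RNA below background on both arrays, Srpk2 read 1.02 and Mat2a 1.13; the cause was not tested. Dim signals and opposite dye ratios limit the lower set. No paired analysis was possible because each time point holds 1 pool per condition.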
